A study of Lactuca sativa with 12 samples.

Results

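Metallothioneins and nicotianamine synthases, 2 families that keep metal ions bound inside plant cells, were followed in leaves of red oak-leaf lettuce (Lactuca sativa). A gene belonged to the set if its RefSeq name contained "metallothionein" or "nicotianamine synthase". Of the 2264 genes listed in any of the 6 deposited comparison tables, 2 met this rule: metallothionein-like protein 1 (LOC111896763) and nicotianamine synthase (LOC111878037). In the tables each is paired with the Pfam family of its name. Each table lists only the genes that the authors called, so both genes had to differ in at least 1 comparison to be seen at all, and metallothionein or nicotianamine synthase genes that were not called were not analysed here.

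All plants were of 1 cultivar, grown hydroponically, and entered treatment at 4 weeks of age, and whole leaves were sampled at 1.5 months. CdSeNP plants received cadmium at 10 mg/L together with biosynthesised selenium nanoparticles at 3 mg/L. SeNP plants received the nanoparticles at 3 mg/L alone, Cd plants received cadmium at 10 mg/L alone, and CK plants received neither. The cadmium dose is written in the labels both for the metal and for its chloride salt, so how much metal the plants received is uncertain. Each group has 3 libraries of poly(A)-selected RNA, called biological replicates in the series text, and the labels place all 12 in the same batch.

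Metallothioneins are small proteins rich in cysteine. Their thiol groups hold copper, zinc and cadmium, and in plants they are known for buffering copper and zinc and for high transcript levels in leaves. Nicotianamine synthase joins molecules of S-adenosylmethionine into nicotianamine, a small chelator that keeps iron, copper and zinc soluble in the phloem and xylem and inside cells. The chloronerva mutant of tomato, which lacks this enzyme, is known for yellowing between the leaf veins and for disturbed iron and copper distribution.

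Library totals recovered from the files ran from 23305756 to 31358371 reads. Replicates of the treated groups differed by 4.96 to 14.0 chi-square per degree of freedom over the listed genes. CK replicate 2 differed more, by 44.4 from CK replicate 1 and by 40.1 from CK replicate 3, which differed from each other by 8.12. Calls and the interaction that rest on CK are therefore also given without that library. Scaling by these totals in place of the authors' size factors moved log2 fold changes by 0.123 in Cd over CK and turned no called direction of either gene. Differences of nicotianamine synthase that were not called were not refitted with totals. The shift was 0.08 in CdSeNP over CK, where an edgeR fit with size factors gave this gene a log2 difference of -0.07. Scaling by TMM on the listed genes alone, most of which were called in 1 direction, turned no called direction, but in refits of each pair of groups it left no call of either gene. In an edgeR fit of 9 libraries with TMM, nicotianamine synthase was called lower in SeNP over CK (log2 change -1.56, adjusted p = 0.0079). There 571 of the 826 genes fitted were called. All 826 had been called by the authors in some comparison, and p was adjusted over them alone. The leaf label was checked on RefSeq names of Rubisco small subunits and chlorophyll a-b binding proteins: 24 such genes were listed in some table, and the 21 of them listed in Cd over CK summed to between 7300 and 8005 FPKM in Cd and between 16100 and 17380 FPKM in CK libraries. Root markers could not test the label, since the tables hold only genes that differed between treatments.

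The metallothionein gene lies on chromosome 8 (113863304 to 113864188, minus strand, coordinates of the files, which match RefSeq assembly Lsat_Salinas_v11). The span covers 885 bases, and the FPKM values imply a transcript model of 581 bases. No other RefSeq gene overlaps it. The RefSeq name calls it protein 1, whereas the Swiss-Prot entry matched to it in the tables is a metallothionein-like protein of type 2. Of its 10 nearest RefSeq neighbours, 5 on each side, 0 were listed in any table.

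The nicotianamine synthase gene lies on chromosome 5 (246748333 to 246749679, minus strand, same coordinates). Its span of 1347 bases equals the model length implied by FPKM. It overlaps the protein-coding gene LOC111877973 by 14 bases. That gene was listed in no table, nor were the other neighbours, with 0 of the 10 nearest listed. Whether reads were counted by strand is not given in the sources used here, so reads in the overlap cannot be assigned to either gene.

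The 2 genes stood far apart in level. Metallothionein-like protein 1 ranked 10th in Cd and 21st in CK by mean FPKM among the 1119 genes listed in Cd over CK. FPKM is scaled by transcript length, so levels of different genes can be set side by side. Its reads made up between 0.0177% and 0.0557% of a library's total. Nicotianamine synthase ranked 630th in SeNP and 445th in CK among the 750 genes listed in SeNP over CK. It had between 10 and 105 counts in a library, and its values are correspondingly less precise than those of the metallothionein, which had between 4806 and 16950 counts.

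**Figure D1:**
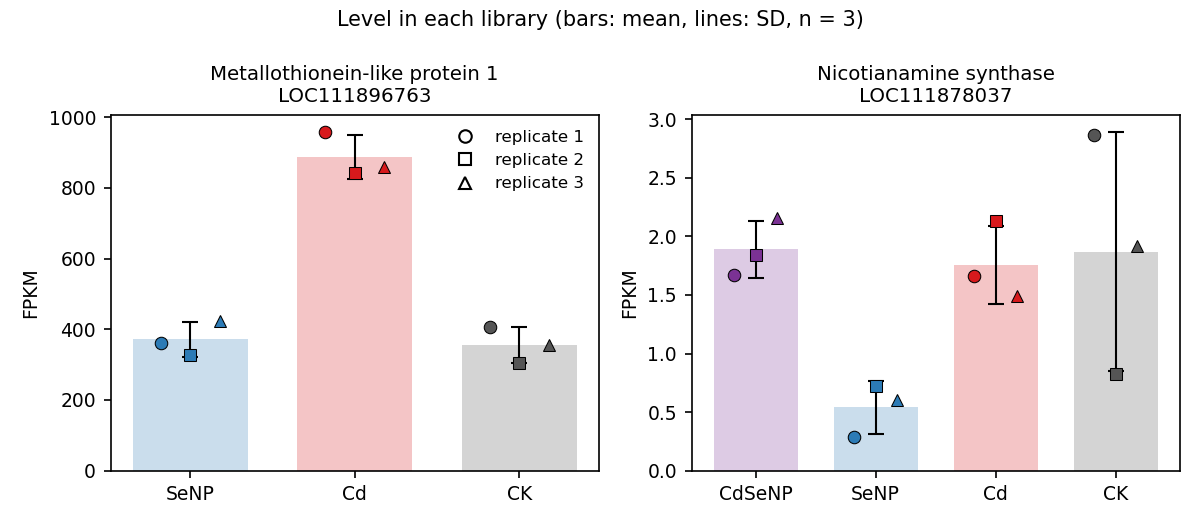
FPKM of both genes in each library, with groups on the horizontal axis. Bars give the mean of 3 libraries, lines the SD, and symbols the replicate number. Metallothionein-like protein 1 is high in the Cd libraries, and the tables give it no value in CdSeNP. Nicotianamine synthase is low in the SeNP libraries, and its CK libraries are widely spread.

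Cd over CK asks what cadmium alone did to leaves. Metallothionein-like protein 1 was higher in Cd. Its level was 959, 843 and 860 FPKM in Cd replicates 1 to 3, against 408, 305 and 356 FPKM in CK replicates 1 to 3. The lowest Cd library stood above the highest CK library, and CK replicate 2 had the lowest value of the 6. The means were 887 ± 62.6 FPKM in Cd and 356 ± 51.3 FPKM in CK (SD, n = 3 each). In the authors' deposited table the log2 fold change is 1.20, a 2.29-fold difference, with an adjusted p of 2.2e-18 (DESeq2) and a standard error, worked back from the unadjusted p, of 0.13. Without CK replicate 2 an edgeR refit gave 1.08 (adjusted p = 1.5e-06), where 1069 of the 1119 listed genes had an adjusted p under 0.05. Among the 23049 genes tested in this comparison, 3.47% were called higher and 1.39% lower. The metallothionein ranked 84th of the 1119 listed genes by adjusted p and 740th by the size of its change.

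Other transcripts moved in the same libraries. Of all 1119 genes listed in Cd over CK, 71.4% were higher. The 21 mesophyll genes named above were all lower in Cd. Of 81 listed genes with names of dividing cells (histones, replication licensing factors and cyclins), 76 were called higher, and they summed to between 3736 and 5094 FPKM in Cd and between 854 and 2392 FPKM in CK. None of the listed markers of either kind was at 0 in all 6 libraries. Their part in the metallothionein result was not tested. In RNA of whole leaves, a change in the share of a cell type and a change in RNA per cell cannot be told apart.

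Nicotianamine synthase was not listed in Cd over CK. Its level was 1.66, 2.13 and 1.49 FPKM in Cd replicates 1 to 3, against 2.87, 0.822 and 1.92 FPKM in CK replicates 1 to 3. The Cd values lay within the range of the CK values, whose lower end is CK replicate 2, and 2 of the 3 Cd values lay below the other CK libraries. An edgeR fit of all 12 libraries, on the 575 genes with values in each of them, gave a log2 difference of -0.21 with a 95% interval from -1.02 to 0.60 (adjusted p = 0.62, where 73.4% of the 575 genes were called). The interval holds a halving in Cd but no doubling. The value turned on single CK libraries: without CK replicate 2 it was -0.58 (edgeR, adjusted p = 0.048, with 492 of the 575 genes called), and without CK replicate 1 it was 0.24 (edgeR, adjusted p = 0.60).

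SeNP over CK asks what the nanoparticles did without cadmium. Here nicotianamine synthase was lower in SeNP. Its level was 0.289, 0.725 and 0.605 FPKM in SeNP replicates 1 to 3, against the CK values of 2.87, 0.822 and 1.92 FPKM. The groups did not overlap, but CK replicate 2 lay just above the highest SeNP library. The means were 0.540 ± 0.225 FPKM in SeNP and 1.87 ± 1.02 FPKM in CK (SD, n = 3 each). Behind them stand 57 counts summed over the SeNP libraries and 204 over the CK libraries. By counting error alone, SeNP replicate 2 has an exact Poisson 95% interval from 0.482 to 1.05 FPKM and CK replicate 2 one from 0.554 to 1.17 FPKM. These 2 libraries therefore could not be told apart at this depth. In the authors' deposited table the log2 fold change is -1.83, with a recovered standard error of 0.49 and an adjusted p of 0.0032 (DESeq2). Among the 22656 genes tested, 2.07% were called lower and 1.24% higher. In the same libraries 57 of the 81 listed genes with names of dividing cells were called higher and 0 lower, with sums between 2703 and 2889 FPKM in SeNP and between 682 and 1818 FPKM in CK, while 0 of the 24 mesophyll genes were called. Their part in the synthase result was not tested.

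This call was the least certain of the 5. An edgeR refit of the listed genes gave nearly the same change, -1.82, but an adjusted p of 0.16 when every gene not listed was counted at the largest p, and without CK replicate 2 it gave -2.18 with an adjusted p of 1.5e-15. With any other library left out the edgeR change ran from -2.13 to -1.37, and the gene was not called. At an adjusted p under 0.05, 84 of the 750 listed genes passed with all libraries and 747 without CK replicate 2. With any other library left out, between 2 and 70 of them passed. The lost call and the adjusted p of 1.5e-15 were therefore not particular to this gene. In the 12-library edgeR fit the change was -1.81 (95% interval -2.74 to -0.89, adjusted p = 0.0021 over 575 genes, of which 67.1% were called).

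Metallothionein-like protein 1 was not listed in SeNP over CK. It had 362, 328 and 424 FPKM in SeNP replicates 1 to 3, a range that overlapped the 305 to 408 FPKM of the CK libraries. The means were 371 ± 48.8 FPKM in SeNP and 356 ± 51.3 FPKM in CK (SD, n = 3 each). An edgeR fit of the 9 libraries with values, on 826 genes, gave a log2 difference of 0.02 with a 95% interval from -0.26 to 0.30 (adjusted p = 0.89, where 70.5% of the 826 genes were called). Without CK replicate 2 it was -0.09 (95% interval -0.30 to 0.12, adjusted p = 0.40, edgeR). A doubling or a halving of the metallothionein transcript lies outside both intervals.

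**Figure D2:**
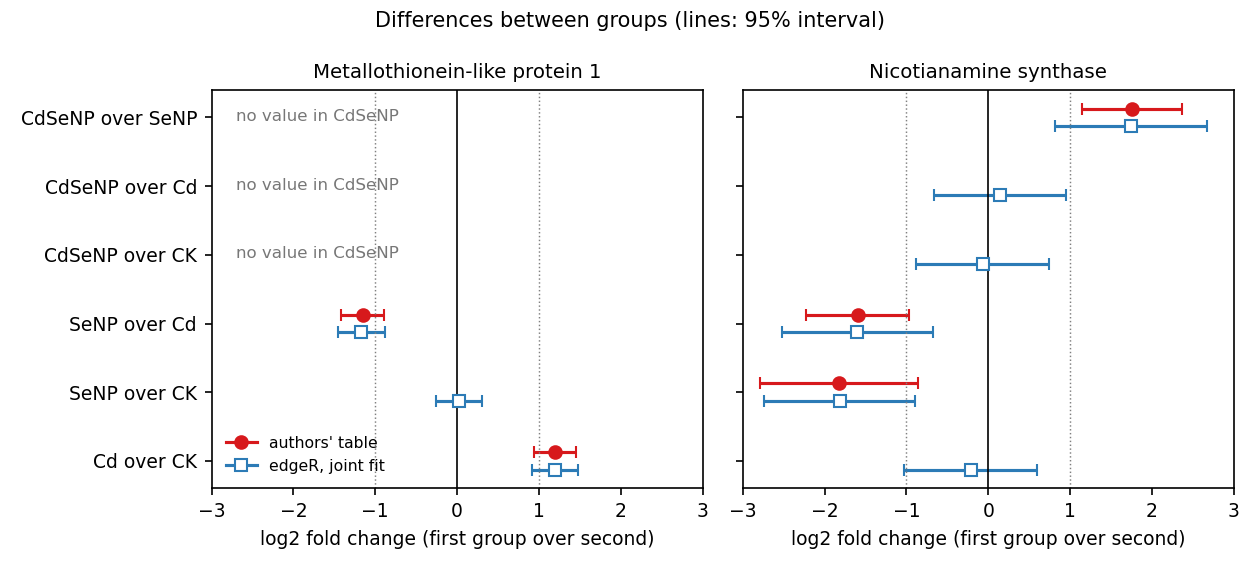
log2 fold changes of both genes in each comparison, first group over second, with 95% intervals. Filled circles are the values in the authors' tables, open squares are edgeR fits of 9 libraries (metallothionein) or 12 libraries (nicotianamine synthase), and dotted lines mark the authors' fold threshold. The metallothionein was called in Cd over CK and SeNP over Cd, and the synthase in the 3 comparisons that involve SeNP.

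SeNP over Cd sets the single treatments side by side and listed both genes, each lower in SeNP. Among the 22978 genes tested, 1.51% were called lower and 0.67% higher. Metallothionein-like protein 1 had 371 ± 48.8 FPKM in SeNP and 887 ± 62.6 FPKM in Cd (SD, n = 3 each), and the highest SeNP library stood below the lowest Cd library. Its log2 fold change in the authors' deposited table was -1.16, with a recovered standard error of 0.13 and an adjusted p of 1.9e-16 (DESeq2). It kept its call in every edgeR refit that left out 1 library, with changes from -1.25 to -1.11. Between 344 and 415 of the 501 listed genes had an adjusted p under 0.05 in these refits.

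Nicotianamine synthase had 0.540 ± 0.225 FPKM in SeNP and 1.76 ± 0.333 FPKM in Cd (SD, n = 3 each), again without overlap. Its change in the authors' deposited table was -1.60 on the log2 scale, with a recovered standard error of 0.32 and an adjusted p of 1.2e-05 (DESeq2). In edgeR refits the direction held, but the call ended without SeNP replicate 1 (adjusted p = 0.060), SeNP replicate 3 (0.14) or Cd replicate 2 (0.13). Without these libraries, in the same order, 360, 358 and 344 of the 501 listed genes had an adjusted p under 0.05. SeNP over Cd shares its Cd libraries with Cd over CK and its SeNP libraries with SeNP over CK, so the comparisons are not independent of each other.

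Mesophyll names also differed between these groups. All 21 such genes listed in SeNP over Cd were higher in SeNP, where 30.7% of all 501 listed genes were higher. They summed to between 19400 and 20220 FPKM in SeNP and between 8168 and 9281 FPKM in Cd. Their part in the result was not tested.

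CdSeNP over SeNP asks what cadmium did in the presence of nanoparticles. Nicotianamine synthase was higher in CdSeNP. It had 1.67, 1.84 and 2.15 FPKM in CdSeNP replicates 1 to 3, against 0.289, 0.725 and 0.605 FPKM in SeNP. Every CdSeNP library was more than double every SeNP library. In the authors' deposited table the log2 fold change is 1.76, a 3.38-fold difference, with a recovered standard error of 0.31 and an adjusted p of 2.9e-07 (DESeq2). Among the 22862 genes tested, 3.24% were called higher and 0.625% lower. The call held in each edgeR refit without 1 library, with changes from 1.44 to 2.07, and no CK library enters it. Between 861 and 870 of the 884 listed genes had an adjusted p under 0.05 in these refits. The 20 mesophyll genes listed here were all lower in CdSeNP, with sums between 5914 and 6255 FPKM in CdSeNP and between 15260 and 15660 FPKM in SeNP, and their part in the result was not tested.

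Neither gene was listed in CdSeNP over CK, where 2.57% of genes tested were called (1.25% higher and 1.33% lower), or in CdSeNP over Cd, where 1.87% were called (1.09% higher and 0.788% lower). For nicotianamine synthase, the 12-library edgeR fit gave a log2 difference of -0.07 for CdSeNP over CK (95% interval -0.88 to 0.74, adjusted p = 0.87, with 79.7% of the 575 genes called) and of 0.14 for CdSeNP over Cd (95% interval -0.67 to 0.96, adjusted p = 0.76, with 52.7% called). Without CK replicate 2 the difference for CdSeNP over CK was -0.44 (edgeR, adjusted p = 0.14), and without CK replicate 1 it was 0.38 (edgeR, adjusted p = 0.36). The group means in falling order were 1.89 FPKM in CdSeNP, 1.87 FPKM in CK, 1.76 FPKM in Cd and 0.540 FPKM in SeNP. Neighbours among the first 3 did not differ beyond their spread with all libraries in the fit. SeNP was separated from each of the other groups by a call of the authors, and that from CK was not kept in the edgeR refit. For metallothionein-like protein 1 the tables give no value in CdSeNP libraries, so its order could be set for 3 groups only: Cd, then SeNP and CK, the last 2 of which did not differ beyond their spread.

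The cadmium effect on nicotianamine synthase with and without nanoparticles was compared directly. The log2 change was 1.74 in CdSeNP over SeNP, a contrast in which 66.8% of the 575 genes were called, and -0.21 in Cd over CK in the 12-library edgeR fit, and the difference between these changes was 1.957 with a standard error of 0.57 (95% interval 0.72 to 3.19). Its adjusted p was 0.0073 over the 575 genes fitted (edgeR quasi-likelihood interaction term). A call is common in this set, since 73.7% of the 575 genes passed, and the gene entered it through the same SeNP libraries that set the difference. The difference ran from 1.51 to 2.32 with each of the 12 libraries left out in turn, and remained called each time, with edgeR adjusted p from 5.5e-05 to 0.021. With TMM factors computed on these called genes alone it was 0.64 (edgeR, adjusted p = 0.32). Without CK replicate 2 it was 2.32, where the Cd over CK change was -0.58.

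**Figure D3:**
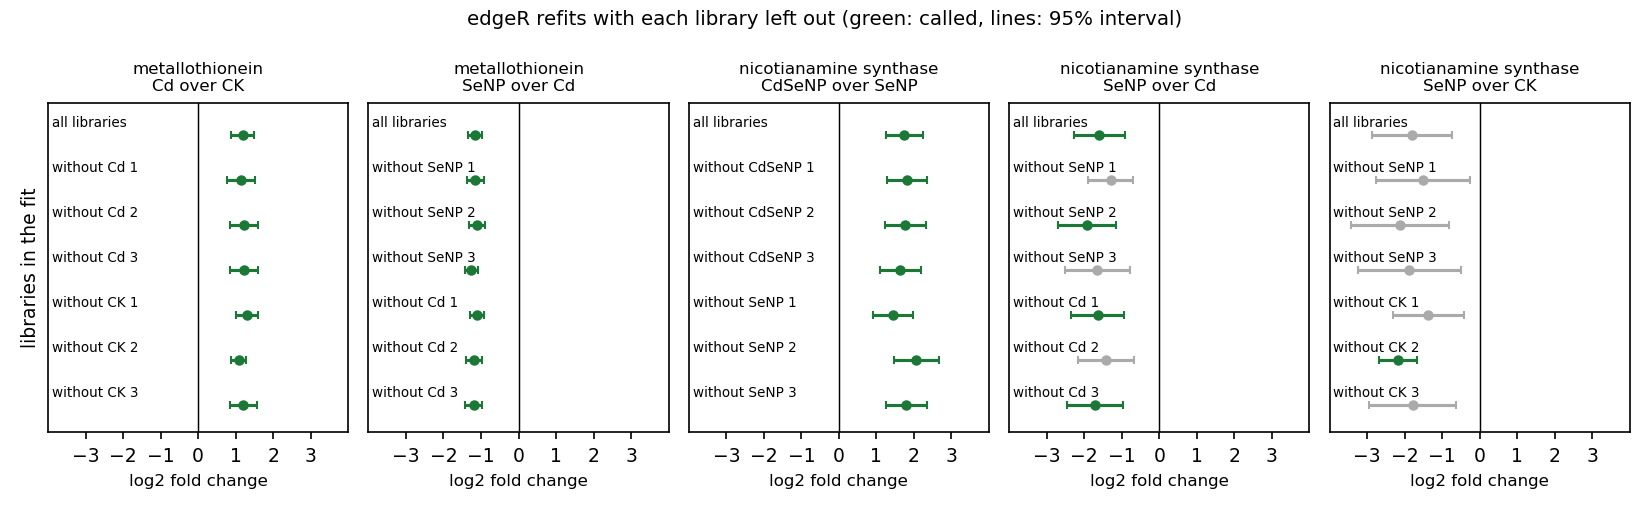
log2 fold change of each called gene and comparison in edgeR refits with all libraries and with each library left out, with 95% intervals. Green marks fits in which the call held. All fits keep the direction, and the calls that end are those of nicotianamine synthase in SeNP over Cd and SeNP over CK.

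Other genes that handle nicotianamine and metals were counted by lists of words on RefSeq names. The list of the nicotianamine pathway matched 4 genes in any table, all of them transporters, and 0 listed genes were named for nicotianamine aminotransferase, S-adenosylmethionine synthesis or the recycling of methylthioadenosine. Of the 4, 2 were called lower and 0 higher in SeNP over CK (median log2 fold change -1.61, against -1.09 over the 750 listed genes, 37.6% of them higher). In SeNP over Cd 3 were lower and 0 higher, where 30.7% of all listed genes were higher, and in CdSeNP over SeNP 3 were higher and 0 lower, where 83.8% of all listed genes were higher. Cd over CK had 1 higher and 1 lower (71.4% of all listed higher), CdSeNP over CK had 1 higher (48.5% of all listed higher), and CdSeNP over Cd had 0.

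The metal-nicotianamine transporter YSL3, which in Arabidopsis carries metals bound to nicotianamine, was listed at 2 genes. YSL3 gene LOC111876026 was listed in the same 3 comparisons as nicotianamine synthase. This was not particular to it. Zinc transporter 1 at LOC111880346 and copper transporter 5 (LOC111893192) were listed in the same 3 with the same directions. Copper-zinc superoxide dismutase LOC111882980 was listed in them with opposite directions. YSL3 gene LOC111876026 itself had 6.60 ± 0.385 FPKM in CdSeNP, 3.09 ± 0.250 FPKM in SeNP, 8.75 ± 0.507 FPKM in Cd and 8.93 ± 0.907 FPKM in CK (SD, n = 3 each). It was called lower in SeNP over CK (log2 fold change -1.56, adjusted p = 8.7e-28) and in SeNP over Cd (-1.40, adjusted p = 2e-35), and higher in CdSeNP over SeNP (1.05, adjusted p = 6.4e-19), all in the authors' deposited tables (DESeq2). YSL3 gene LOC111920401 was called lower in SeNP over CK, with a log2 fold change of -1.66 (adjusted p = 8.9e-31, DESeq2, authors' deposited table). It was also called lower in Cd over CK, with -1.13 (adjusted p = 1.3e-15, DESeq2, authors' deposited table). Unlike the other YSL3 gene, it was not listed in SeNP over Cd or CdSeNP over SeNP.

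Oligopeptide transporter 3, which in Arabidopsis loads iron into the phloem, was called at LOC111920790 and LOC111905484. Gene LOC111905484 had 44.4 ± 0.166 FPKM in CdSeNP, 21.5 ± 0.264 FPKM in SeNP and 48.0 ± 2.33 FPKM in Cd (SD, n = 3 each), and was called higher in CdSeNP over SeNP and lower in SeNP over Cd in the authors' deposited tables. LOC111920790 moved with cadmium both with and without nanoparticles. It had 54.5 ± 3.19 FPKM in CdSeNP, 6.54 ± 0.457 FPKM in SeNP, 54.8 ± 1.15 FPKM in Cd and 7.45 ± 0.968 FPKM in CK (SD, n = 3 each), and was called higher in Cd over CK, in CdSeNP over CK and in CdSeNP over SeNP.

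The list of thiol chelation and metal-binding proteins matched 16 genes: 9 heavy metal-associated isoprenylated plant proteins, which bind metal ions, 4 transporters of the ABC C family, which in Arabidopsis includes vacuolar carriers of phytochelatins, and 3 ferritins, the iron stores of the chloroplast. No listed gene was named for phytochelatin, glutamate-cysteine ligase or glutathione synthetase, the enzymes of the other cysteine-based chelators. In Cd over CK 5 of these genes were higher and 4 lower (median log2 fold change 1.06, against 1.19 over all 1119 listed, 71.4% of them higher). The 3 genes with the smallest adjusted p were the ferritins, all lower in Cd. Ferritin LOC111908574 had 25.6 ± 1.58 FPKM in Cd and 148 ± 12.9 FPKM in CK, and ferritin-4 LOC111919692 had 5.85 ± 0.550 FPKM in Cd and 48.5 ± 9.93 FPKM in CK (SD, n = 3 each). The 5 higher genes were 3 heavy metal-associated isoprenylated plant proteins and 2 ABC C transporters. Of these, heavy metal-associated isoprenylated plant protein 37 (LOC111921158), chosen after its values were seen, had 12.5 ± 2.37 FPKM in Cd and 4.99 ± 1.67 FPKM in CK (SD, n = 3 each).

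In SeNP over CK 4 genes of this list were lower and 0 higher, where 37.6% of all listed genes were higher. Among the 4 were ABC transporter C family member 10 (LOC111890855), with 6.93 ± 0.0812 FPKM in SeNP and 19.96 ± 0.369 FPKM in CK, and heavy metal-associated isoprenylated plant protein 39 (LOC111908753), with 24.5 ± 2.24 FPKM in SeNP and 49.9 ± 8.80 FPKM in CK (SD, n = 3 each). In SeNP over Cd 4 were higher, the 3 ferritins among them, and 3 lower, where 30.7% of all listed genes were higher. In CdSeNP over SeNP 6 were higher and 3, the ferritins, lower, where 83.8% were higher. In CdSeNP over CK 0 were higher and 4 lower, where 48.5% were higher, and in CdSeNP over Cd none was called.

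**Figure D4:**
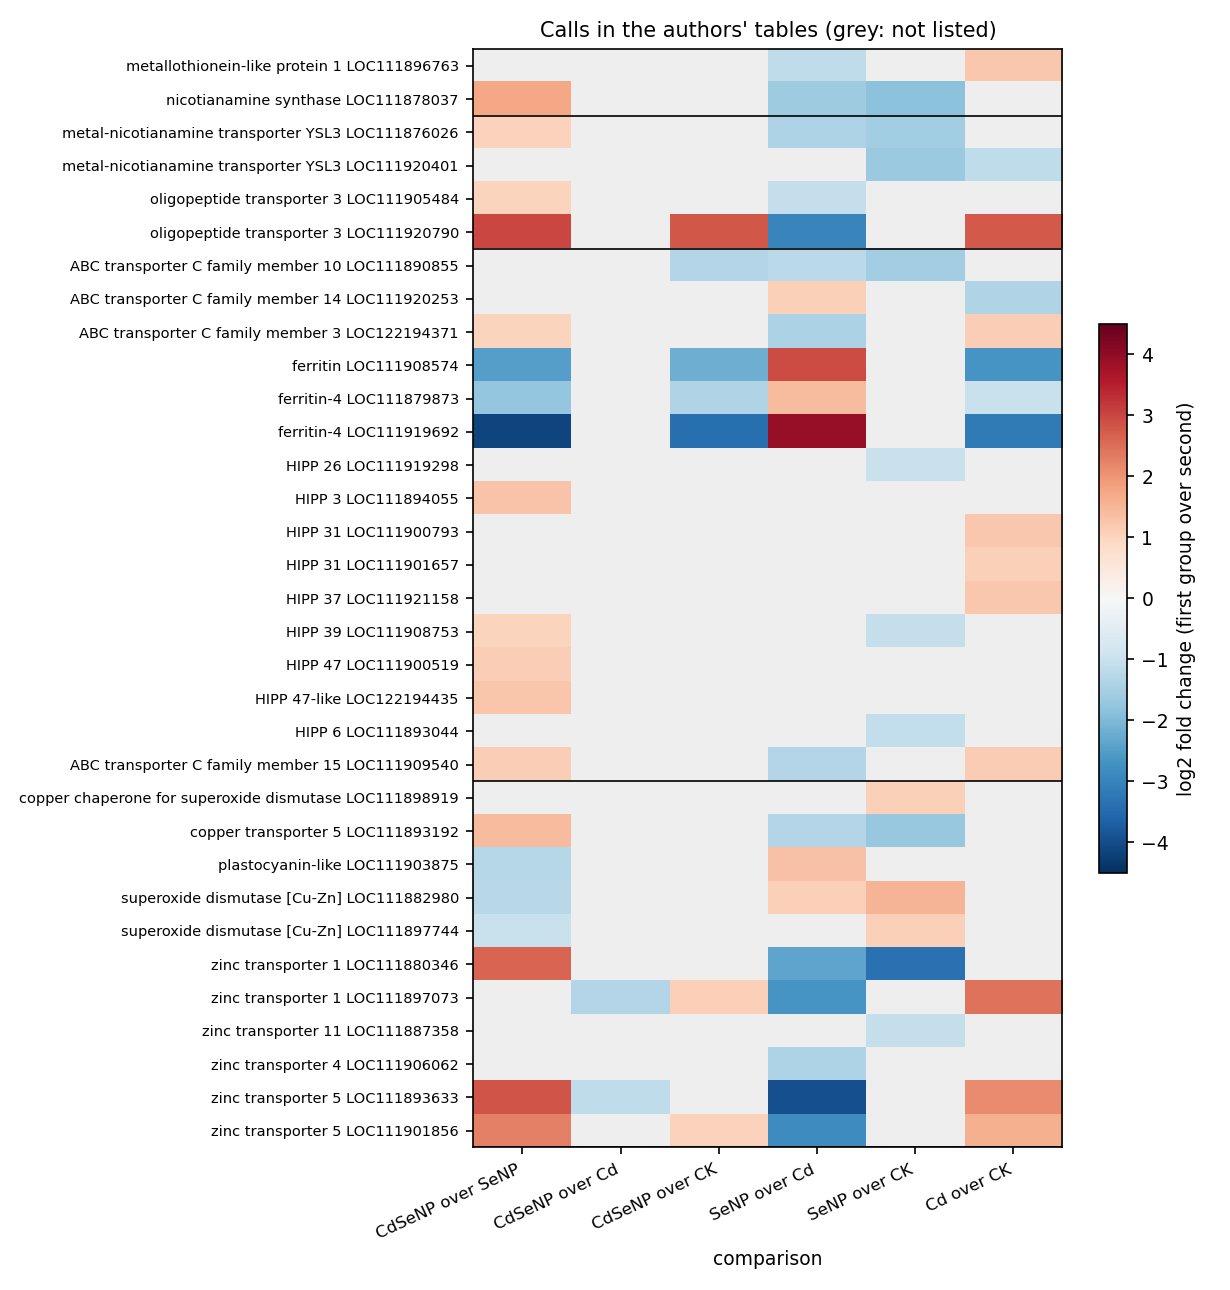
log2 fold changes in the authors' tables for the 2 genes (top) and for the genes of the 3 word lists, with comparisons on the horizontal axis. Red is higher and blue lower in the first-named group, and grey means not listed. YSL3 gene LOC111876026 shares its called comparisons with nicotianamine synthase. HIPP stands for heavy metal-associated isoprenylated plant protein.

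The list of copper and zinc balance matched 11 genes, and 6 of them were zinc transporters. In Cd over CK 3 were higher and 0 lower, where 71.4% of all listed genes were higher. All of them were zinc transporters, such as zinc transporter 1 (LOC111897073) with 4.36 ± 0.548 FPKM in Cd and 0.747 ± 0.102 FPKM in CK (SD, n = 3 each). In SeNP over CK 3 were higher and 3 lower, where 37.6% of all listed genes were higher. Of the 3 with the smallest adjusted p, copper-zinc superoxide dismutase (LOC111882980), which removes superoxide, had 231 ± 23.6 FPKM in SeNP and 79.1 ± 8.25 FPKM in CK. Zinc transporter 1 at LOC111880346 had 1.84 ± 0.369 FPKM in SeNP and 18.3 ± 0.936 FPKM in CK, and copper transporter 5 (LOC111893192) had 47.1 ± 7.68 FPKM in SeNP and 149 ± 10.3 FPKM in CK (SD, n = 3 each). In SeNP over Cd 2 were higher and 6 lower, where 30.7% were higher, and in CdSeNP over SeNP 4 were higher and 3 lower, where 83.8% were higher. CdSeNP over CK had 2 higher and 0 lower, where 48.5% were higher. CdSeNP over Cd had 0 higher and 2 lower, where 58.0% were higher, and these were the only genes of the 3 lists called between CdSeNP and Cd. There, zinc transporter 1 (LOC111897073) had 1.67 ± 0.475 FPKM in CdSeNP and 4.36 ± 0.548 FPKM in Cd (SD, n = 3 each).

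Genes with the most similar profile were ranked by Pearson's r of log2(FPKM + 1), as a description of libraries that share treatments. Over 12 libraries and 574 other genes, nicotianamine synthase was most like a pair of loci that the authors added to the RefSeq genes, with r of 0.913 and 0.905, and UDP-glycosyltransferase 85C1 (LOC111917379, r = 0.899), which transfers a sugar to small molecules. The glycosyltransferase had 62.3 ± 3.64 FPKM in CdSeNP, 26.1 ± 1.39 FPKM in SeNP, 60.1 ± 2.97 FPKM in Cd and 61.2 ± 13.1 FPKM in CK (SD, n = 3 each). Over the 9 libraries with values and 825 other genes, metallothionein-like protein 1 was most like 14 kDa proline-rich protein DC2.15 (LOC111877070, r = 0.995), another added locus (r = 0.990) and transcription factor ORG2 at LOC111878327 (r = 0.988), a regulator of iron-deficiency genes in Arabidopsis. Each of these 3 genes was high in Cd and low in SeNP and CK. DC2.15 had 0.314 ± 0.321 FPKM in SeNP, 3.19 ± 0.433 FPKM in Cd and 0.368 ± 0.238 FPKM in CK (SD, n = 3 each). In the CdSeNP libraries, for which the metallothionein has no value, they ranged widely: DC2.15 had 0.590 ± 0.358 FPKM, ORG2 1.11 ± 0.0346 FPKM and the added locus 4.54 ± 0.814 FPKM (SD, n = 3 each).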

How the data were processed

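Whole-leaf poly(A) RNA of 12 libraries in 4 groups was used, with groups and replicate numbers taken from the sample titles. The submitters' processing notes name DESeq2 1.34.0, StringTie 2.2.1, HISAT2 2.2.1, fastp 0.23.0 and Trimmomatic, without saying which step each served. The read counter, its use of strand and the genome build were not stated. Per the file headers, the deposited tables hold whole-number counts per gene, FPKM (fragments per kilobase of transcript, scaled to library size) and, for each comparison, the authors' log2 fold change, p-value and adjusted p-value. Tested on the files, all listed genes had adjusted p-values under 0.05 and changed by more than 1 on the log2 scale. The authors' calls are therefore the main result, since genes that were not called could not be refitted. The numbers of genes tested were recovered from the ratios of adjusted to raw p, and standard errors from fold change and p.

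Library totals were computed back from the count and FPKM of each gene with at least 200 counts (agreeing within 0.2%). Size factors were fitted to 2002 of the authors' fold changes, with a median residual of 0.0031 (log2). edgeR 4.0.16 (quasi-likelihood) and DESeq2 1.42.0 refits of the listed genes used them in R 4.3.3, with Benjamini-Hochberg adjustment over all genes tested and each unlisted gene at the largest p, which gives the largest possible adjusted p. Joint edgeR fits used 826 genes (9 libraries) or 575 genes (12 libraries), adjusted over those genes. The interaction in the 12-library fit, also with 1 library left out, was planned. Fits of 9 libraries and differences between pairs of groups in joint fits were added after seeing the data, also with 1 library left out. So was the likeness of the metallothionein over 9 libraries. The scripts were tested on simulated data. Poisson intervals cover counting error only.

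Members, gene lists and tests were chosen with earlier results of these data known. The rule names every member, from each list up to 3 genes per comparison with the smallest adjusted p, and the 3 genes most like each member; an exception is marked where it stands. Of the 2264 genes, 2102 matched a RefSeq ID of Lsat_Salinas_v11, all with the same start and end. Of the other marker lists, that for phloem and xylem matched 1 gene, lower in CdSeNP over Cd. The epidermis list matched 16 genes, of which 10 were higher and 4 lower in Cd over CK, where 71.4% of all listed genes were higher. In CdSeNP over Cd 0 were higher and 5 lower, where 58.0% of all listed genes were higher. The senescence list matched 4, of which 1 was higher and 1 lower in Cd over CK. Alternatives were other tests, scalings and limits, a filter on low counts, the replicate number as a block, and each library left out. Sequences and promoter motifs were not analysed here.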

Additional observations from a re-analysis of the deposited data

Results flagged for a closer look

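The change of nicotianamine synthase (LOC111878037) with cadmium was 1.74 in CdSeNP over SeNP and -0.21 in Cd over CK on the log2 scale (edgeR fit of 12 libraries), a difference of 1.957 with a standard error of 0.57 (edgeR quasi-likelihood interaction term, adjusted p = 0.0073 over 575 genes). The test is not independent of how the gene came to be seen. The gene is among the 575 through calls that use the SeNP libraries, which also set this difference, and 73.7% of the 575 genes passed the same test. The 3 CdSeNP libraries were all higher than the 3 SeNP libraries. The 3 Cd libraries lay within the range of the 3 CK libraries, the lower end of which is CK replicate 2. Without that library Cd over CK was -0.58 (edgeR, adjusted p = 0.048) and the difference 2.32. The metallothionein could not be tested in this way because the tables give it no value in CdSeNP.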

How the results depend on the processing

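The direction of all 5 called changes and of the interaction held in each alternative run. No change of either gene reached a log2 size of 2 in the authors' tables, so at that limit neither gene was called in any comparison. Other listed genes did pass it, such as oligopeptide transporter 3 LOC111920790 with 2.76 in Cd over CK. TMM factors computed on the listed genes assume that most genes do not change, which fails by construction in a table of called genes. They moved log2 values by -1.01 in Cd over CK, -1.27 in CdSeNP over SeNP, 0.62 in SeNP over CK and 1.10 in SeNP over Cd. They left 0 calls of either gene in each of these refits, and brought the interaction to 0.64 (edgeR, adjusted p = 0.32). Library totals moved log2 values by 0.123 in Cd over CK and by under 0.1 elsewhere. In SeNP over CK, nicotianamine synthase was not called with edgeR, with or without the limit on fold change (unadjusted p = 0.0032). Nor was it called with library totals, with the replicate block or with a mean of at least 10 counts. Of the 750 listed genes, 84 had an adjusted p under 0.05 with edgeR, 47 with library totals and 411 with the replicate block. The cause was not tested. The DESeq2 refit kept the call of the synthase (adjusted p = 0.021). Of the 2 genes of the set, leaving out single libraries gave 0 to 1 called in SeNP over CK and 1 to 2 in SeNP over Cd. It gave 1 in Cd over CK and in CdSeNP over SeNP, and an interaction of 1.51 to 2.32. For differences that were not called, it gave -0.58 to 0.24 for the synthase in Cd over CK, -0.44 to 0.38 in CdSeNP over CK and 0.03 to 0.31 in CdSeNP over Cd, and -0.093 to 0.13 for the metallothionein in SeNP over CK, so the sign was not fixed in 3 of these 4. Of the 3 genes most like nicotianamine synthase 1 was kept with Spearman's rho, and of the 3 most like the metallothionein 1 with a pseudocount of 0.1. Correlations of the deviations of same-numbered replicates ran from -0.385 to 0.483 and passed 0.1, the limit set for a pairing, at all 3 numbers in none of the pairs of groups, though they were above 0 at all 3 in CdSeNP and SeNP, in SeNP and CK and in Cd and CK. The numbers were therefore not treated as a pairing. With the replicate block the changes were 1.20 (metallothionein) in Cd over CK, and for the synthase -1.70 in SeNP over CK (edgeR, adjusted p = 0.084), and the interaction was 1.93 (adjusted p = 0.012). Low counts limit the nicotianamine synthase, with 10 to 105 reads a library.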
